A study of Mus musculus with 12 samples.

Results

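The circadian clock genes of primary mouse hepatocytes were examined here in cells kept with or without oleic acid (OA) and with or without benzbromarone (BBR). Arntl, Clock, Npas2, Cry1, Per2, Per3, Nr1d1, Nr1d2, Dbp and Tef, 10 of the 22471 features in the deposited tables, were taken by gene symbol, and each symbol matched 1 feature. They were selected on measured values of these libraries, above all on their difference between cells with and without OA. Their values are therefore a description, given without p-values, and the difference that selected them supports nothing further.

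The clock runs in nearly every cell as a feedback loop of transcription. ARNTL (also called BMAL1) pairs with CLOCK or NPAS2 and switches on genes that carry E-box sequences, among them the Per and Cry repressors, the nuclear receptors Nr1d1 and Nr1d2 (REV-ERB alpha and beta) and the output factors Dbp and Tef. PER and CRY proteins then hold the activators back, while the REV-ERB proteins repress Arntl, Clock, Npas2 and Cry1 through ROR elements, so that Arntl and Npas2 transcripts peak at roughly the opposite phase from Nr1d1, Dbp and Tef. In liver the loop times genes of lipid, glucose and drug metabolism.

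Hepatocytes were isolated from young male C57BL/6J mice and cultured on plates in 4 groups of 3 libraries each: untreated control cells, cells given OA, which loads hepatocytes with fat, cells given BBR, a uric acid-lowering drug, and cells given BBR together with OA (BBR+OA). The paper describes a common isolation procedure and a serum-supplemented medium. Whether all groups came from the same preparation is not stated. OA was added after mixing with bovine serum albumin, and whether the cells without OA received albumin is not stated. The design calls the replicates biological but does not say if each was a different animal or a different well, so p-values measure only the spread between these samples. Each group was harvested at a single time point, and the time of day is not stated. Cells cultured from a digested liver are no intact tissue, although the labels name the tissue as liver.

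Total counts ranged from 15485508 to 23668379 per library, so that 1 count equalled 0.0423 to 0.0646 CPM (counts scaled to the size of the library), and the 3 counts that a count of 0 allows equalled 0.127 to 0.194 CPM. These limits cover counting error only. CPM was scaled by TMM, which corrects for differences in library composition.

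All 8 hepatocyte markers were detected in every library, with 27086 to 34484 CPM of Alb (albumin). The summed level of these markers lay between 44402 and 45407 CPM in control, 47756 and 49722 in OA, 43072 and 44973 in BBR, and 49578 and 51522 in BBR+OA. The 10 Kupffer cell markers summed to 101 to 119 CPM in control and 109 to 123 CPM in OA, and to 141 to 182 CPM in BBR and 116 to 123 CPM in BBR+OA. Cd68 reached 2575 counts in a library and no other of these markers exceeded 378, so the sum says little of the others. Of these 10 markers, 3 rose and 6 fell in OA against control, where 42.8% of all tested genes were called by edgeR at an adjusted p under 0.05. Between BBR and BBR+OA, 3 rose and 3 fell with OA (38.9% of all), and between control and BBR 1 rose and 1 fell (27.7% of all). Their median size of log2 difference was 1.11 in OA against control and 0.71 in BBR+OA against BBR, beside 0.20 and 0.17 over all tested genes. The median with its sign was -0.53 and -0.28. The hepatocyte sum was mostly Alb. Of its 8 markers, 4 rose and 2 fell in OA against control, and 4 rose and none fell in BBR+OA against BBR. In BBR against control 1 rose and 4 fell, and in BBR+OA against OA none rose and 1 fell (4.59% of all). The 4 cholangiocyte markers summed to 37.5 to 43.6 CPM in control, 49.8 to 69.0 in OA, 59.7 to 69.2 in BBR and 48.4 to 57.5 in BBR+OA, so that the sum was lowest in control. It was mostly Sox9, which alone stood at 29.1 to 34.4 CPM in control. Of the 3 markers tested, all rose in BBR against control, 1 rose in OA against control and 1 fell in BBR+OA against BBR. In all OA libraries 2 of the 3 were above control, while Epcam was below it (1.48 to 1.68 against 1.76 to 1.90 CPM). The 6 endothelial markers summed to 51.1 to 54.0 CPM in control, 47.5 to 60.9 in OA, 57.9 to 62.8 in BBR and 57.8 to 58.2 in BBR+OA. Of 6 tested, 3 rose in BBR against control, and of 5 tested, 1 rose in OA against control and 2 rose and 3 fell in BBR+OA against BBR. The 6 stellate markers summed to 22.5 to 28.7 CPM over all libraries, and of 4 tested 1 rose and 1 fell in OA against control. None of these markers of other liver cells was called in BBR+OA against OA (4.59% of all). Krt7 was at 0 in 6 libraries, Lrat in 4 and Clec4g in 1, and no other marker was at 0 in any library. The part of these cells in the differences below was not tested. In bulk RNA, fewer cells of a type and less RNA per cell cannot be told apart.

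Promoter sequences were read to show which of the binding sequences of the loop lie next to these genes. RefSeq start sites (GRCm38.p6) gave 13 windows for 9 of the 10 genes, each from 250 bases before to 50 bases after an annotated start, and none for Per2. Both strands were searched for the E-box CACGTG, for the D-box TTATGTAA or TTACGTAA, to which DBP, TEF and their antagonist NFIL3 bind, and for the ROR element TAGGTCA, to which ROR and REV-ERB receptors bind. Of all 32851 RefSeq windows, 7.15% held the E-box, 1.06% the D-box and 2.61% the ROR element, and 10.6% held any of the 3. These shares are per window, while some of the genes had more than 1 window. Windows of 4 of the 9 genes held at least 1 match: Cry1 and Tef an E-box, Per3 a pair of D-boxes, and Arntl a ROR element. The stretches around these matches are printed in the direction of transcription with the motif in capitals, since they show the element types of the loop side by side.
Arntl, chr7:113207531-113207557, plus strand: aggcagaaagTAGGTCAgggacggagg
Cry1, chr10:85185099-85185124, minus strand: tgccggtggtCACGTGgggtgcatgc
Per3 upstream match, chr4:151044853-151044880, minus strand: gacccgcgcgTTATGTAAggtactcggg
Per3 downstream match, chr4:151044806-151044833, minus strand: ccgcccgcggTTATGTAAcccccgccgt
Tef first window, chr15:81802536-81802561, plus strand: gctgtggctcCACGTGctgcagctgg
Tef second window, chr15:81811266-81811291, plus strand: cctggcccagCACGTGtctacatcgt

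Counted from the annotated start at 0, the first base of the match lay at -60 in Cry1, at -205 and -158 in Per3, at -127 and -138 in the Tef windows, and at +30, downstream of the start, in the second Arntl window. No matches overlapped each other. The windows of Clock, Npas2, Nr1d1, Nr1d2 and Dbp held none of these letters, which says nothing of sites outside the windows or of other spellings. A match is a description of the sequence, and binding was not measured.

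**Figure D1:**
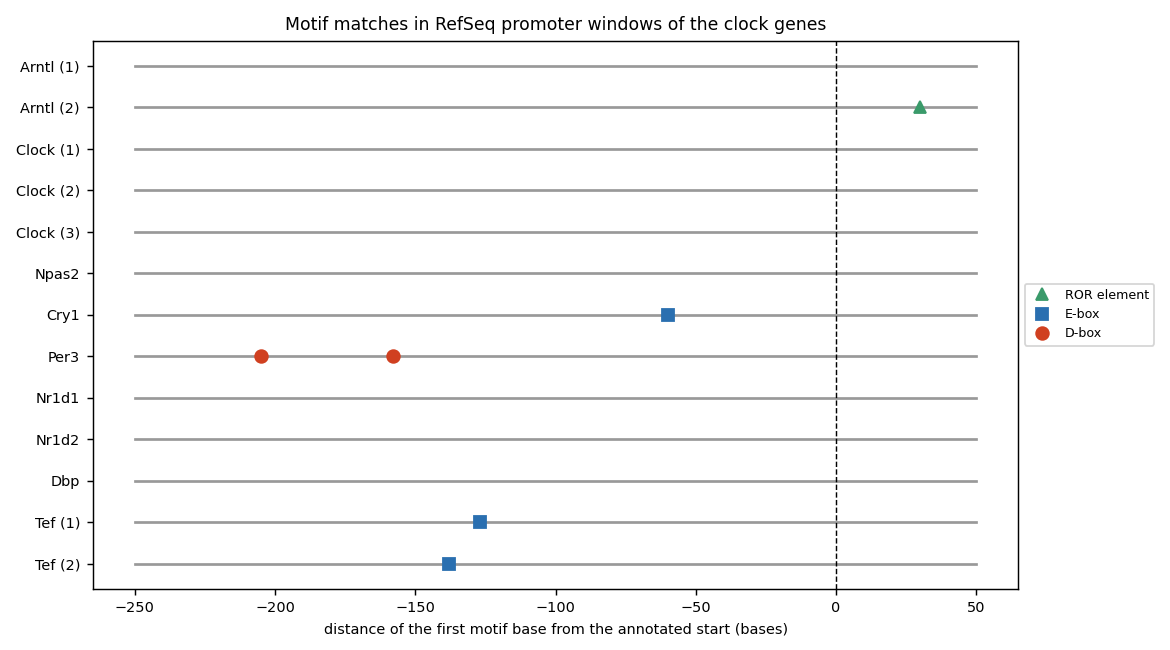
Motif matches in the 13 RefSeq promoter windows of 9 clock genes. The horizontal axis is the distance in bases of the first motif base from the annotated start, grey lines are windows, and numbers in brackets separate windows of 1 gene; 6 matches are seen, 2 of them D-boxes of Per3.

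With OA the activator genes and Cry1 were higher and the remaining 6 genes were lower than in cells without OA, whether or not BBR was present. In OA against control, 4 of the 10 genes passed the test as higher, where 21.3% of 12418 tested genes did, and 6 as lower, where 21.5% did (42.8% in either direction). In BBR+OA against BBR, the same 4 genes passed as higher, where 20.1% of 12416 tested genes did, and the same 6 as lower, where 18.8% did (38.9% in either direction). These counts follow from how the genes were selected. The values of the 3 OA and 3 control libraries did not overlap for any of the 10 genes, and neither did those of the 3 BBR+OA and 3 BBR libraries. Among all tested genes the libraries did not overlap for 52.2% and 49.6%. The median size of the log2 difference over the 10 genes was 1.14 in OA against control and 1.19 in BBR+OA against BBR, beside 0.20 and 0.17 over all tested genes. These comparisons share no library. The genes were selected on values of all 4 groups, however, so the second comparison is no independent repeat of the first.

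**Figure D2:**
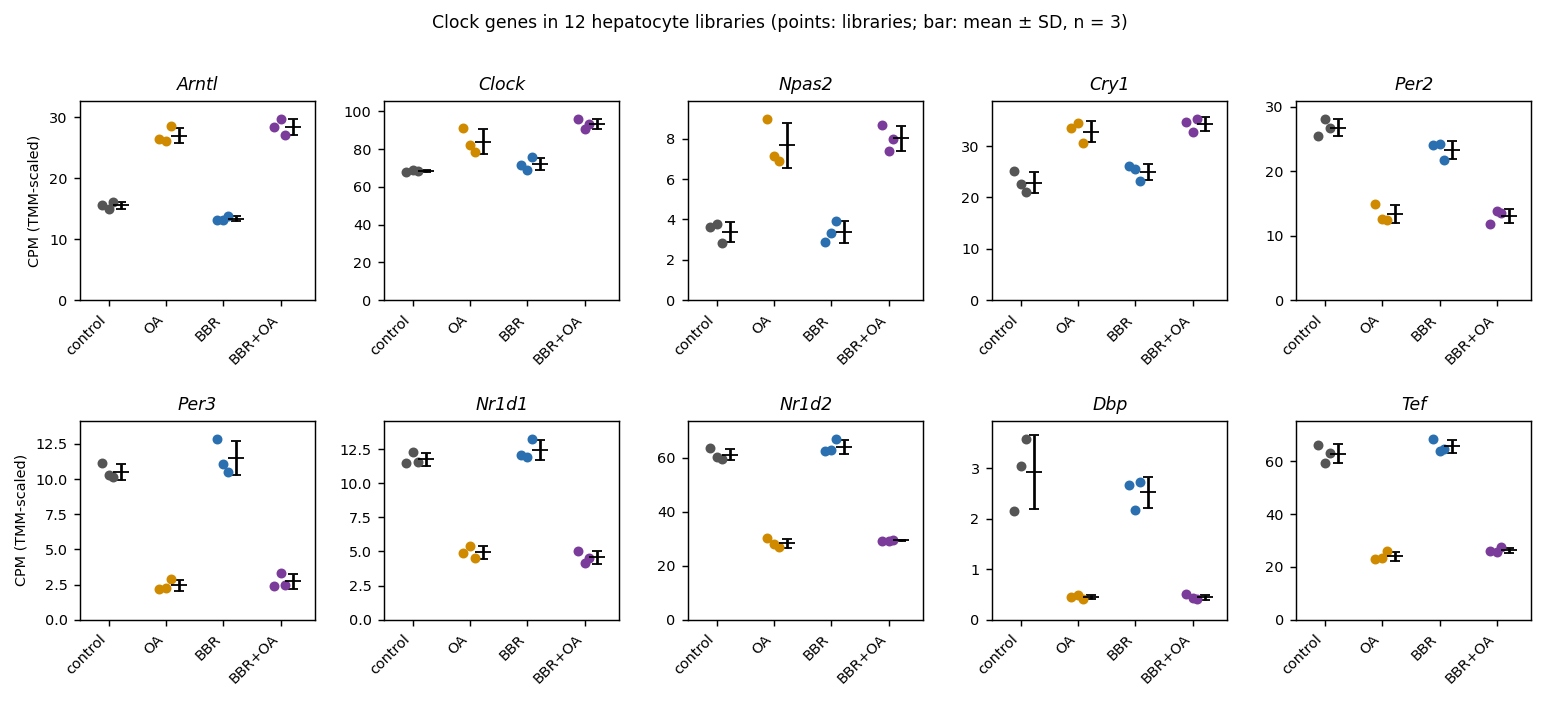
CPM of the 10 clock genes in each of the 12 libraries. Points are libraries, black marks are the mean ± SD of 3 libraries, and each panel starts at 0; in every panel the OA and BBR+OA points stand apart from the control and BBR points, above them for Arntl, Clock, Npas2 and Cry1 and below them for the others.

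Arntl (ENSMUSG00000055116, chr7:113207465-113314126, plus strand; GRCm38, GENCODE release M21), the obligatory partner in the activator complex, was measured at 15.6, 14.9 and 16.1 CPM in control and at 26.4, 26.1 and 28.5 CPM in OA. In BBR it stood at 13.2, 13.1 and 13.8 CPM and in BBR+OA at 28.4, 29.7 and 27.1 CPM. All 6 libraries with OA were above all 6 without it, and the 3 BBR libraries were the lowest of the 12. The log2 difference was 0.80 (SE 0.07) in OA against control and 1.08 (SE 0.07) in BBR+OA against BBR.

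Clock (ENSMUSG00000029238, chr5:76209868-76304792, minus strand), a partner of ARNTL, differed least with OA among the 10 genes. Its values were 68.0, 68.8 and 68.7 CPM in control and 91.2, 82.4 and 78.5 CPM in OA. They were 71.8, 68.9 and 75.7 CPM in BBR and 95.9, 90.7 and 93.3 CPM in BBR+OA. The lowest OA library, at 78.5 CPM, was above the highest library without OA, at 75.7 CPM. The log2 difference was 0.30 (SE 0.06) without BBR and 0.37 (SE 0.05) with it.

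Npas2 (ENSMUSG00000026077, chr1:39193731-39363236, plus strand), which can take the place of CLOCK, had the largest positive difference of the 10 genes. Control libraries held 3.61, 3.76 and 2.83 CPM and OA libraries 8.96, 7.15 and 6.89 CPM. BBR libraries held 2.86, 3.33 and 3.92 CPM and BBR+OA libraries 8.66, 7.41 and 7.98 CPM. Counts were small, from 52 to 171 per library, yet the groups with and without OA did not overlap. The log2 difference was 1.18 (SE 0.16) without BBR and 1.25 (SE 0.15) with BBR.

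Cry1 (ENSMUSG00000020038, chr10:85131700-85185064, minus strand) encodes a repressor of the ARNTL complex that is expressed late in the cycle, under both E-box and ROR elements. It was the 1 repressor of the set that stood higher with OA. Control libraries gave 25.1, 22.5 and 21.0 CPM, and OA libraries 33.5, 34.4 and 30.5 CPM. BBR libraries gave 26.1, 25.6 and 23.1 CPM, and BBR+OA libraries 34.8, 32.7 and 35.2 CPM. No library with OA came below 30.5 CPM and none without OA exceeded 26.1 CPM. The log2 difference was 0.53 (SE 0.08) without BBR and 0.45 (SE 0.07) with it. The E-box printed above lies 60 bases before the start of this gene.

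Per2 (ENSMUSG00000055866, chr1:91415982-91459324, minus strand), a partner of the CRY repressors, was lower with OA. It stood at 25.5, 28.1 and 26.7 CPM in control and at 14.9, 12.6 and 12.5 CPM in OA. In BBR it stood at 24.0, 24.3 and 21.7 CPM, and in BBR+OA at 11.9, 13.8 and 13.5 CPM. A gap from 14.9 to 21.7 CPM separated the libraries with OA from those without. The log2 difference was -1.001 (SE 0.08) without BBR and -0.84 (SE 0.08) with it.

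Per3 (ENSMUSG00000028957, chr4:151003652-151044665, minus strand), a close relative of Per2 with a lesser part in the loop, carried the pair of D-boxes shown above. Its values were 11.2, 10.3 and 10.1 CPM in control and 2.21, 2.22 and 2.91 CPM in OA. With BBR they were 12.9, 11.1 and 10.5 CPM, and with BBR+OA 2.38, 3.33 and 2.44 CPM. Every library with OA was thus below 3.4 CPM and every library without it above 10 CPM. The fold in OA was 0.235 of control (log2 -2.09, SE 0.14), and in BBR+OA 0.236 of BBR (log2 -2.08, SE 0.15). Without BBR+OA replicate 2, the highest of the 6 libraries with OA, the latter was -2.26.

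Nr1d1 (ENSMUSG00000020889, chr11:98767932-98775333, minus strand) encodes REV-ERB alpha, the nuclear receptor that represses Arntl. It was measured at 11.5, 12.3 and 11.5 CPM in control and at 4.88, 5.42 and 4.49 CPM in OA. BBR libraries gave 12.1, 11.9 and 13.3 CPM and BBR+OA libraries 5.06, 4.13 and 4.52 CPM. The ranges stood well apart, and the log2 difference was -1.25 (SE 0.11) without BBR and -1.44 (SE 0.12) with it. Of its 3077 exonic bases, 263 overlap exons of Thra on the other strand, and its count was fractional in 6 of 12 libraries. The sum of the Nr1d1 and Thra counts was whole in all 12 libraries, to within 0.015 of a count. Thra, a thyroid hormone receptor gene named here after its values were seen, stood at 8.66 ± 1.11 CPM (SD, n = 3) in control, 4.60 ± 1.06 in OA, 6.46 ± 1.02 in BBR and 5.24 ± 0.23 in BBR+OA. Whether counting used the strand is not stated, so reads of Nr1d1 and Thra cannot be told apart in the shared bases.

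Nr1d2 (ENSMUSG00000021775, chr14:18204054-18239127, minus strand) encodes the related receptor REV-ERB beta and shares no exonic base with another gene of the annotation. Its control values were 63.6, 60.4 and 59.7 CPM and its OA values 30.2, 27.9 and 26.9 CPM. Its BBR values were 62.4, 63.0 and 67.1 CPM and its BBR+OA values 29.4, 29.2 and 29.6 CPM. Libraries with OA fell in a narrow band from 26.9 to 30.2 CPM, below the band without OA from 59.7 to 67.1 CPM. Nr1d2 was 0.464 of control in OA (log2 -1.11, SE 0.06) and 0.457 of BBR in BBR+OA (log2 -1.13, SE 0.05).

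Dbp (ENSMUSG00000059824, chr7:45705088-45710203, plus strand), a PAR bZIP factor that carries clock time to metabolic genes through D-boxes, had the largest difference of the 10 genes and the fewest reads. Control libraries held 42.7, 63.9 and 85.0 estimated counts (2.15, 3.04 and 3.59 CPM) and OA libraries 8.14, 9.10 and 7.67 (0.454, 0.488 and 0.408 CPM). BBR libraries held 57.8, 33.9 and 50.7 estimated counts (2.67, 2.18 and 2.74 CPM) and BBR+OA libraries 10.2, 8.38 and 7.11 (0.506, 0.423 and 0.417 CPM). All 6 values with OA were above the limit of 3 counts but so low that single counts weigh heavily. The log2 difference was -2.69 (SE 0.30) without BBR and -2.48 (SE 0.28) with it. Of 2993 exonic bases of Dbp, 539 overlap Sphk2 on the other strand, and the Dbp count was fractional in 11 of 12 libraries. Sphk2, a sphingosine kinase gene named after its values were seen, lay between 20.1 and 23.7 CPM in all 12 libraries, with a log2 difference of 0.02 (SE 0.07) in OA against control. The sum of the Dbp and Sphk2 counts was whole in 1 of 12 libraries, within the same tolerance as for Nr1d1 and Thra.

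Tef (ENSMUSG00000022389, chr15:81802421-81826863, plus strand), a PAR bZIP factor related to Dbp, was the most abundant of the 10 genes per length in control cells. Values of 66.3, 59.3 and 63.2 CPM in control stood against 22.9, 23.3 and 26.0 CPM in OA. Values of 68.6, 63.9 and 64.6 CPM in BBR stood against 25.9, 25.7 and 27.5 CPM in BBR+OA. The lowest library without OA was more than 30 CPM above the highest with it. Tef was 0.384 of control in OA (log2 -1.38, SE 0.07) and 0.400 of BBR in BBR+OA (log2 -1.32, SE 0.06). Its annotation shares 193 of 7867 exonic bases with the antisense RNA gene Gm17597.

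Because Arntl and Nr1d1 stand on opposite sides of the loop, their log2 CPM was subtracted within each library, a value to be compared between libraries and not between the genes. The difference was 0.45, 0.27 and 0.48 in control and 2.44, 2.27 and 2.66 in OA. It was 0.13, 0.14 and 0.06 in BBR and 2.49, 2.85 and 2.58 in BBR+OA. The ranges of cells with and without OA lay well apart, which follows from how both genes were selected. The BBR range was below that of control. For Arntl minus Per3 it was also below, at 0.04 to 0.39 in BBR and 0.48 to 0.67 in control. For Clock minus Tef the ranges overlapped, at 0.07 to 0.23 in BBR and 0.04 to 0.21 in control.

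Levels of different genes can be compared only per length, for which the deposited FPKM (fragment counts divided by the length of the transcript and the depth of the library) were used. In control, Tef was highest at 16.6 ± 0.86 FPKM (SD, n = 3), followed by Nr1d2 at 13.3 ± 0.59, Cry1 at 10.1 ± 3.58, Clock at 9.45 ± 0.25 and Arntl at 5.63 ± 0.16. Lower in the order stood Per2 at 4.64 ± 0.21, Nr1d1 at 4.39 ± 0.18, Per3 at 1.78 ± 0.12, Dbp at 1.76 ± 0.44 and Npas2 at 1.08 ± 0.25. The libraries of neighbours overlapped between Nr1d2 and Cry1, Cry1 and Clock, Per2 and Nr1d1, Per3 and Dbp, and Dbp and Npas2, so these neighbours were not separated by their spread.

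In OA the order was led by Clock at 11.5 ± 1.01 FPKM, Cry1 at 10.7 ± 0.73 and Arntl at 9.30 ± 0.43, ahead of Tef at 6.47 ± 0.81 and Nr1d2 at 6.08 ± 0.32. Per2 stood at 2.27 ± 0.24, Npas2 at 1.98 ± 0.27, Nr1d1 at 1.79 ± 0.19, Per3 at 0.407 ± 0.064 and Dbp at 0.253 ± 0.029 FPKM. Neighbours overlapped between Clock and Cry1, Tef and Nr1d2, Per2 and Npas2, and Npas2 and Nr1d1. Tef and Nr1d2 thus stood above Clock and Arntl per length in control and below them in OA, with no overlap between the libraries of any of these pairs. The orders in BBR and in BBR+OA again had Tef first and Clock first, at 16.6 ± 0.51 and 12.8 ± 0.35 FPKM.

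The FPKM of Cry1 did not follow its counts in 1 library. FPKM divided by CPM was 0.325 to 0.338 in 11 libraries and 0.675 in control replicate 3, where the count of 497 gave 14.2 FPKM, against 8.50 and 7.56 FPKM in the other control libraries. On FPKM means, the log2 difference of Cry1 in OA against control was therefore 0.09, and not 0.53 as on counts. The cause was not tested. In BBR+OA against BBR, which does not use that library, Cry1 stood at 11.2 ± 0.50 and 8.29 ± 0.54 FPKM.

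**Figure D3:**
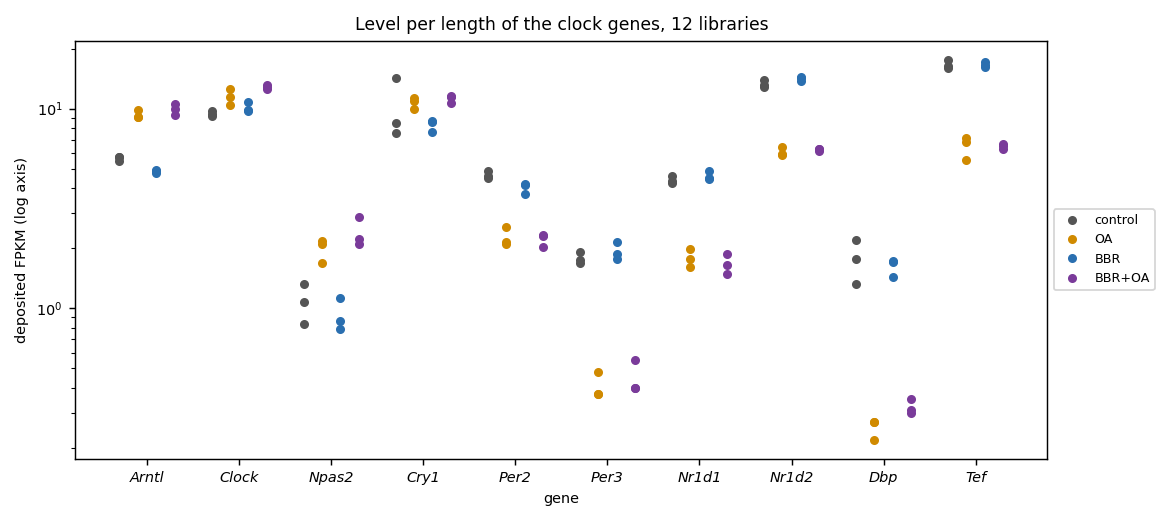
Deposited FPKM of the 10 clock genes in 12 libraries on a log axis, with libraries as points coloured by group. Tef and Nr1d2 lead without OA and Clock, Cry1 and Arntl with OA, and 1 control point of Cry1 at 14.2 FPKM stands apart from the other Cry1 points.

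To describe how these 10 genes stood with the drug, BBR was set against control and BBR+OA against OA. They were selected on values of all 4 groups, so their calls are a description and no test of the clock. Of 10 other core clock genes tested below, 3 rose and 2 fell in BBR against control, and 3 rose in BBR+OA against OA. None of the 10 genes was called in BBR against control, where 27.7% of 12555 tested genes were, and none of the 9 that could be tested in BBR+OA against OA, where 4.59% of 12278 were. Dbp had too few counts for a test in the latter. The log2 differences ran from -0.21 (Arntl, SE 0.08) to 0.14 (Per3, SE 0.10) in BBR against control. They ran from -0.11 (Nr1d1, SE 0.15) to 0.15 (Clock, SE 0.06) in BBR+OA against OA.

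Without OA, Arntl and Per2 were lower in all 3 BBR libraries than in all 3 control libraries and Clock was higher, and the other 7 genes overlapped. Libraries did not overlap for 41.5% of all tested genes in that comparison. Per2 was measured at 23.3 ± 1.42 CPM (SD, n = 3) in BBR and 26.8 ± 1.29 CPM in control, and Arntl at 13.4 ± 0.37 and 15.6 ± 0.62 CPM. The Clock groups were separated only by 68.9 against 68.8 CPM. With OA, the BBR+OA and OA libraries overlapped for all 10 genes, where 23.9% of all tested genes did not overlap.

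The interaction, that is how much the effect of BBR in OA-loaded cells exceeded its effect in cells without OA, ran from -0.18 (Nr1d1, SE 0.16) to 0.29 (Arntl, SE 0.10) on the log2 scale. No gene of the 10 was called for it, where 12.2% of 12742 tested genes were, and the limit set by the selection applies here too. The OA difference of Arntl was the larger in the presence of BBR, 1.08 against 0.80, and without OA replicate 3 its interaction was 0.33 and was called.

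**Figure D4:**
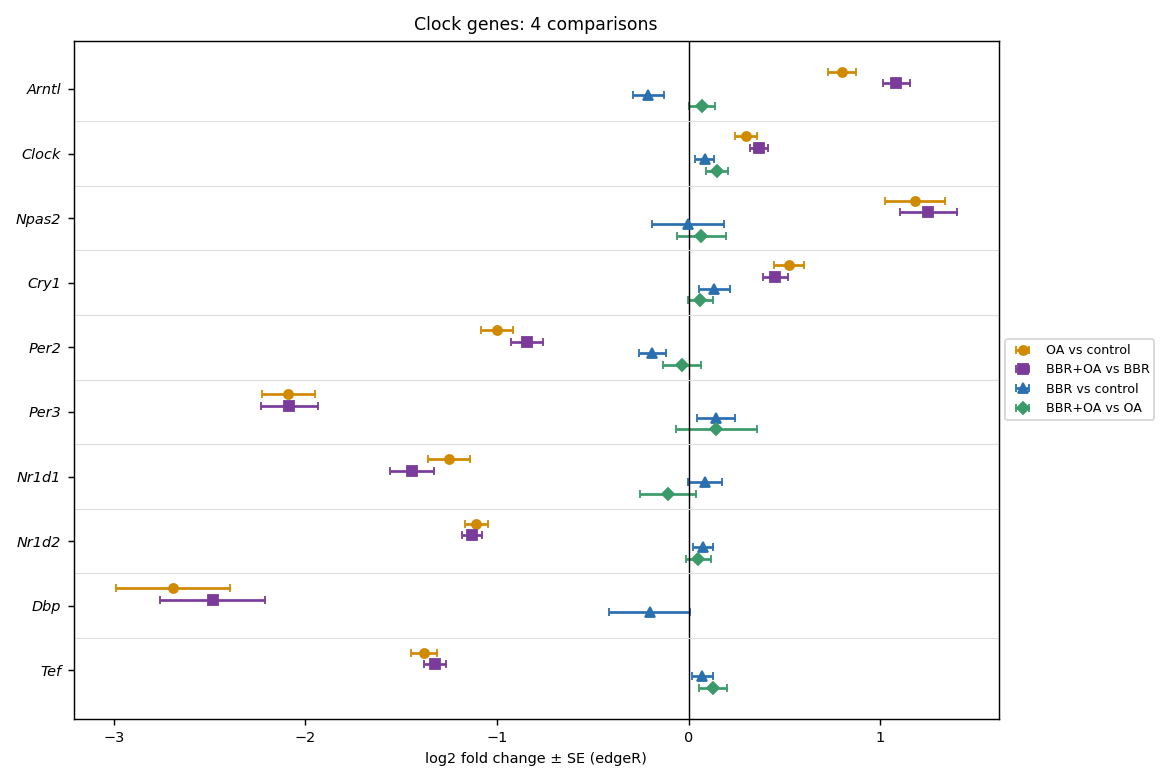
Log2 fold changes of the 10 clock genes in 4 comparisons, with the SE of the edgeR fit as bars. The OA comparisons lie from 0.30 to 1.25 for Arntl, Clock, Npas2 and Cry1 and from -2.69 to -0.84 for the others, while the BBR comparisons lie within 0.21 of 0; Dbp has no value in BBR+OA against OA.

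A further 11 core clock genes, outside the selected 10, were then read from the same fits. They are what the choice of the 10 left out, and their list was made with earlier results of these data known. They are therefore no independent set. Rorb had no count in any library, and 10 were tested, with p-values adjusted over all genes. In OA against control 3 rose and 3 fell, beside the background of 42.8%. In BBR+OA against BBR 3 rose and 3 fell (38.9%), in BBR against control 3 rose and 2 fell (27.7%), and in BBR+OA against OA 3 rose and none fell (4.59%). Their median size of change in OA against control was 0.36 on the log2 scale, against 0.20 over all tested genes. BBR against control and OA against control share the control libraries, as BBR+OA against OA and BBR+OA against BBR share the BBR+OA libraries.

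Per1, the third Per gene and one that responds quickly to hormones and serum, moved against the direction in which Per2 and Per3 stood. It was at 15.1, 15.7 and 14.9 CPM in control and at 37.8, 32.7 and 30.5 CPM in OA. It was at 21.3, 26.3 and 22.2 CPM in BBR and at 40.9, 41.3 and 40.2 CPM in BBR+OA. No groups compared overlapped, and the BBR libraries lay between control and OA. Per1 rose with OA by a log2 change of 1.15 (SE 0.08, edgeR adjusted p = 1.2e-07) and by 0.82 (SE 0.07, adjusted p = 9.2e-07) in the presence of BBR. It rose with BBR by 0.61 (SE 0.09, edgeR adjusted p = 5.8e-05), and by 0.28 (SE 0.07, adjusted p = 0.046) in the presence of OA. A RefSeq window of Per1 held 1 E-box, 166 bases before the start, in the stretch chr11:69098773-69098798, plus strand: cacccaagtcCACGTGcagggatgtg.

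Cry2, the second cryptochrome, fell with OA while Cry1 stood higher. It went from 31.3 ± 2.28 CPM (SD, n = 3) in control to 21.7 ± 2.01 in OA, a log2 change of -0.53 (SE 0.08, edgeR adjusted p = 0.00011). In BBR it was at 30.3 ± 0.50 CPM and in BBR+OA at 25.4 ± 0.43, a change of -0.26 (SE 0.06, edgeR adjusted p = 0.0031). BBR against control gave -0.04 (SE 0.07, adjusted p = 0.69), which did not pass. Of its 6320 exonic bases, 295 overlap the noncoding gene D930015M05Rik on the other strand.

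Hlf, the third PAR bZIP factor beside Dbp and Tef, was at 4.61, 4.57 and 4.18 CPM in control and at 1.65, 1.35 and 1.79 CPM in OA. In BBR it was at 3.00, 1.79 and 1.66 CPM and in BBR+OA at 1.52, 1.85 and 1.85 CPM. Only control stood apart, and the other groups overlapped each other. Hlf fell by 1.47 (SE 0.18, edgeR adjusted p = 1.9e-05) with OA and by 1.01 (SE 0.21, adjusted p = 0.0017) with BBR on the log2 scale. It gave -0.34 (SE 0.26, adjusted p = 0.33) in BBR+OA against BBR.

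Rora, a receptor that activates at the ROR element, rose with OA. It went from 54.2 ± 0.41 CPM (SD, n = 3) in control to 65.9 ± 2.83 in OA (log2 0.29, SE 0.05, edgeR adjusted p = 0.00054) and from 51.9 ± 5.58 in BBR to 76.0 ± 1.75 in BBR+OA (0.55, SE 0.06, adjusted p = 1.2e-05).

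Nfil3, which represses at the D-box and so opposes Dbp and Tef, rose with OA. It went from 55.9 ± 2.20 CPM (SD, n = 3) to 67.6 ± 0.85 without BBR (log2 0.28, SE 0.05, edgeR adjusted p = 0.00061) and from 52.9 ± 2.92 to 78.6 ± 3.03 with BBR (0.57, SE 0.05, adjusted p = 1.5e-06). Its RefSeq window held a ROR element on the other strand, 12 bases before the start, in the stretch chr13:52981035-52981061, minus strand: cgctcggaacTGACCTActaacacaca. Arntl2, a relative of Arntl, fell by 0.54 (SE 0.13, edgeR adjusted p = 0.0030) and by 0.55 (SE 0.11, adjusted p = 0.0014) in these comparisons, from 12.7 to 8.67 CPM and from 11.9 to 8.20 CPM. Arntl stood higher in both.

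Among further repressors, Ciart and Bhlhe41 (DEC2) rose with BBR, by 0.56 (SE 0.18, edgeR adjusted p = 0.030) and 0.55 (SE 0.14, adjusted p = 0.0091). Their levels were low, 2.63 ± 0.36 against 3.89 ± 0.49 CPM and 3.86 ± 0.24 against 5.62 ± 0.60 CPM (SD, n = 3). The Ciart call was lost when control replicate 1 or 2 or BBR replicate 1 or 2 was left out (adjusted p = 0.067 to 0.12) and with DESeq2 (adjusted p = 0.062). The Bhlhe41 call was lost without BBR replicate 3 (adjusted p = 0.0501), and 1280 of its 6720 exonic bases overlap the gene model Gm43909 on the other strand. Bhlhe40 (DEC1) was far more abundant, at 306 to 368 CPM over all libraries, and fell by 0.17 (SE 0.04, adjusted p = 0.0071) in BBR+OA against BBR. Timeless, a replication factor named for its fly relative, fell by 0.68 (SE 0.14, edgeR adjusted p = 0.0015) with BBR. The RefSeq window of Ciart held 3 E-boxes, that of Bhlhe41 1 E-box and that of Timeless 1 D-box. With Per1 and Nfil3, 5 of the 10 other core clock genes that had a window held a match.

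In BBR+OA against OA, Per1, Rora (log2 0.20, SE 0.05, edgeR adjusted p = 0.039) and Nfil3 (0.21, SE 0.05, adjusted p = 0.027) passed the test. None of these calls remained without OA replicate 2 or without replicates 1 or 3 of BBR+OA, left out in turn, and 1 remained without OA replicate 3 or replicate 2 of BBR+OA.

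**Figure D5:**
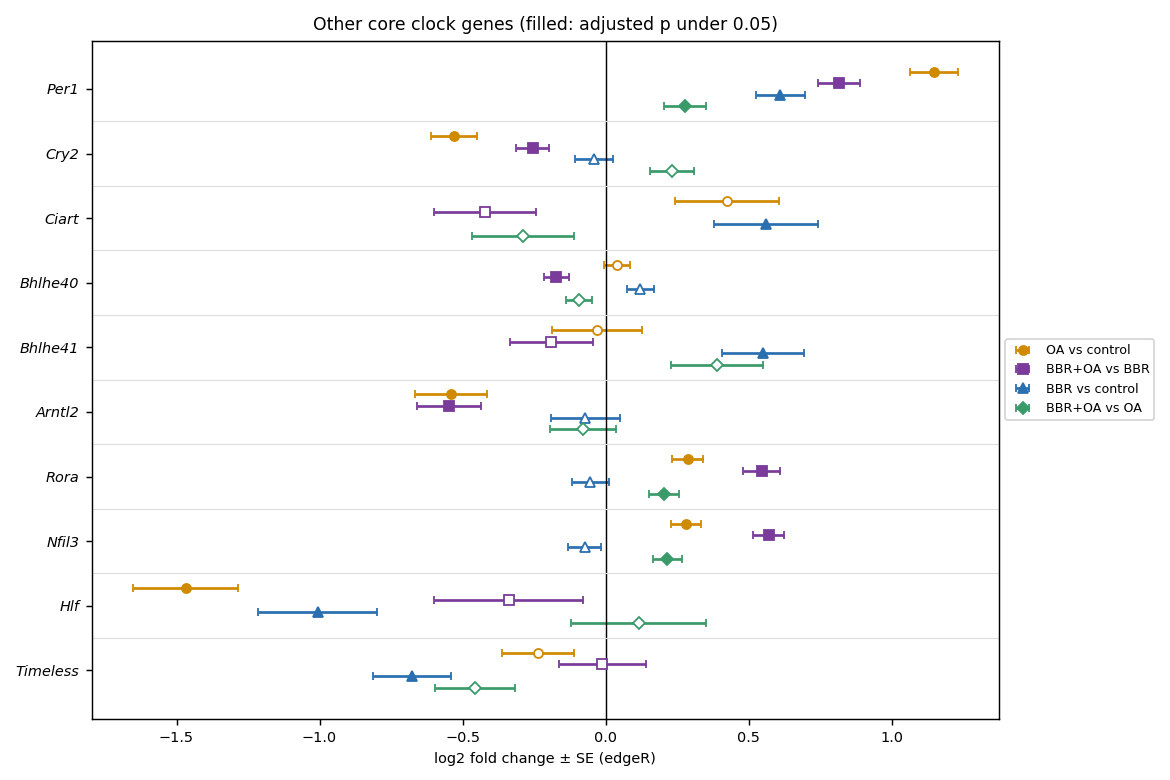
Log2 fold changes of 10 further core clock genes in 4 comparisons, with the SE as bars and filled symbols for an edgeR adjusted p under 0.05. Per1 is positive and filled in all 4 comparisons, and Hlf is negative and filled in OA against control and in BBR against control.

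Genes that modify clock proteins (20 tested kinases, ubiquitin ligases, deacetylases and cofactors) were read next. In OA against control 6 rose and 3 fell, beside 42.8% of all tested genes called, and in BBR+OA against BBR 5 rose and 2 fell, beside 38.9%. In BBR against control 2 rose and 1 fell, beside 27.7%, and in BBR+OA against OA none was called, beside 4.59%. Csnk1e, a kinase that marks PER proteins for decay, rose with OA by 0.60 (SE 0.07, edgeR adjusted p = 2.0e-05) and, with BBR present, by 0.40 (SE 0.06, adjusted p = 0.00019). Btrc, the ligase that recognises marked PER, fell by 0.37 (SE 0.08, edgeR adjusted p = 0.0020) and 0.27 (SE 0.08, adjusted p = 0.017). Ppargc1a, a coactivator of the ROR receptors, fell by 0.92 (SE 0.21, edgeR adjusted p = 0.0029) and 0.84 (SE 0.22, adjusted p = 0.0067), at 2.67 CPM in control and 1.40 CPM in OA. Nampt, which makes the NAD that the deacetylase SIRT1 uses, rose by 0.41 (SE 0.05, edgeR adjusted p = 3.0e-05) with OA and by 0.43 (SE 0.05, adjusted p = 1.2e-05) with BBR. Prkaa2, a catalytic subunit of AMP kinase, fell by 0.35 (SE 0.06, edgeR adjusted p = 0.00031) with BBR and rose by 0.37 (SE 0.06, adjusted p = 0.00015) in BBR+OA against BBR. Gsk3b, a kinase that acts on several clock proteins, rose by 0.17 (SE 0.05, edgeR adjusted p = 0.031) with BBR.

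Liver genes under clock control were mixed in direction. Of 16 tested, 7 rose and 4 fell in OA against control (42.8% of all genes called), and of 15 tested 7 rose and 5 fell in BBR+OA against BBR (38.9%). Wee1, a cell cycle kinase gene with E-boxes, fell from 39.5, 39.1 and 41.7 CPM in control to 19.9, 19.5 and 21.6 CPM in OA. The log2 change was -0.97 (SE 0.07, edgeR adjusted p = 6.6e-08). Cyp2b10, a drug-metabolising P450 gene whose regulator is under PAR bZIP control in liver, rose by 3.83 (SE 0.19, edgeR adjusted p = 3.5e-09) with OA and by 4.10 (SE 0.24, adjusted p = 1.3e-08) with BBR present, from 0.859 to 12.3 CPM and from 0.683 to 11.3 CPM. Dbp and Tef stood lower in the same libraries. Reads of Cyp2b10 may include those of its close relatives.

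Pck1 (gluconeogenesis) rose by 1.09 (SE 0.29, edgeR adjusted p = 0.0076) with OA and by 1.38 (SE 0.26, adjusted p = 0.00083) with BBR present. Its level was low, from 0.904 to 1.91 CPM and from 0.923 to 2.46 CPM, with 10 to 57 counts per library. Nr0b2, a bile acid-induced corepressor, fell by 1.25 (SE 0.25, edgeR adjusted p = 0.0011) in OA against control and by 2.12 (SE 0.31, adjusted p = 7.6e-05) in BBR against control, from a level of 1.98 CPM in control. It held 14 to 17 counts in the OA libraries. In the presence of BBR the libraries overlapped, at 0.41, 0.48 and 0.71 CPM in BBR+OA and 0.51, 0.58 and 0.27 CPM in BBR.

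In BBR against control 5 of 17 tested output genes rose and 5 fell, beside 27.7% of all genes called. Between OA and BBR+OA, none of 15 rose with BBR and 1 fell, beside 4.59%. This was Tspan4, a tetraspanin gene, which fell by 0.36 (SE 0.05, edgeR adjusted p = 0.0010). Lpin1, an enzyme of triglyceride synthesis that also acts as a coregulator, rose from 50.05 ± 4.39 to 73.9 ± 9.93 CPM (SD, n = 3) with BBR (0.57, SE 0.08, edgeR adjusted p = 8.1e-05), and fell by 0.64 (SE 0.09, adjusted p = 4.4e-05) in BBR+OA against BBR. Gys2 (liver glycogen synthase) fell by 1.22 (SE 0.17, edgeR adjusted p = 6.5e-05) and G6pc (glucose release) by 1.03 (SE 0.22, adjusted p = 0.0020) with BBR. Both rose in BBR+OA against BBR, by 1.22 (SE 0.16, edgeR adjusted p = 2.8e-05) and 0.90 (SE 0.14, adjusted p = 0.00013).

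Glucocorticoid and serum responsive genes were read beside these results, because both stimuli shift the clock of cultured cells. Of 12 tested, 7 rose and 2 fell with OA, both without BBR (42.8% of all genes called) and with it (38.9%). Sgk1, a glucocorticoid-induced kinase gene, rose by 1.40 (SE 0.09, edgeR adjusted p = 3.3e-08) without BBR and by 1.60 (SE 0.09, adjusted p = 1.3e-08) with it. Tat, a glucocorticoid-induced enzyme of tyrosine breakdown, rose by 1.06 (SE 0.11, edgeR adjusted p = 3.8e-06) and 1.52 (SE 0.15, adjusted p = 2.4e-06). Fkbp5, a chaperone of the glucocorticoid receptor, rose by 0.67 (SE 0.07, edgeR adjusted p = 2.3e-06) and 0.91 (SE 0.07, adjusted p = 1.9e-07). Egr1, an immediate early gene, rose by 0.69 (SE 0.09, edgeR adjusted p = 2.1e-05) and 0.75 (SE 0.09, adjusted p = 1.9e-05). In contrast, Nr3c1, the gene of the glucocorticoid receptor, was lower in all OA libraries (74.7 to 80.6 CPM) than in all control libraries (89.2 to 92.9 CPM). Jun was lower as well (122.5 to 138.6 against 139.3 to 144.0 CPM), and Tsc22d3 overlapped (20.9 to 21.8 against 18.8 to 21.6 CPM).

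The summed level of the 12 genes was 770 to 784 CPM in control, 916 to 976 in OA, 846 to 880 in BBR and 954 to 986 in BBR+OA. In BBR against control 3 rose and 3 fell, beside 27.7% of all genes. Jun rose by 0.29 (SE 0.04, edgeR adjusted p = 8.3e-05), while Tat fell by 0.44 (SE 0.15, adjusted p = 0.040), Fkbp5 by 0.35 (SE 0.07, adjusted p = 0.0020) and Tsc22d3 by 0.29 (SE 0.09, adjusted p = 0.018). The part of these stimuli in the clock gene values was not tested.

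The genes outside every list whose log2 CPM most resembled that of Arntl over the 12 libraries were, among 9639 genes with a mean of at least 5 CPM, Ip6k2, Cisd3, Cps1, Gars and Ahsg, with Pearson r from 0.989 to 0.994. Those most like Dbp were Sorbs3, Fam13a, Cux1, Adgra3 and Bmf, with r from 0.979 to 0.986. The 12 points share 4 groups and separate by OA, so that these values describe mainly a common difference between libraries with and without OA. Cps1, the first enzyme of the urea cycle, stood at 17.9 CPM in control and 178 CPM in OA, and at 9.70 and 193 CPM in BBR and BBR+OA. Ahsg, a secreted hepatocyte protein, stood at 1477 and 2247 CPM, and at 1295 and 2428 CPM. Bmf, a proapoptotic gene, stood at 12.2 CPM in control and 4.40 in OA, and at 11.0 and 3.79 CPM in BBR and BBR+OA.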

How the data were processed

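RNA was measured in 12 libraries of primary mouse hepatocytes (poly(A)-enriched, random-primed, Illumina), assigned to groups by sample title. Per library, the authors deposited an estimated count and an FPKM for 22471 features. The submitters' processing notes name the build mm10. The aligner, the counter and the use of strand are not given in the sources used here. Estimated counts were rounded to whole numbers (2862 features had a fractional count). Reads shared by overlapping or near-identical genes may have been divided between them.

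Comparisons of 2 groups used their 6 libraries and the interaction used all 12, with edgeR 4.0.16 in R 4.3.3 (filterByExpr with minimum count 10, TMM, two-sided quasi-likelihood F test, Benjamini-Hochberg adjustment over all genes tested, called at 0.05). SE were derived from the F statistic. Scripts were tested on simulated data. CPM used TMM factors over all 12 libraries. FPKM was not tested.

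The 10 genes, the gene lists and the tests were chosen with earlier results of these data known, and 2 genes of these lists are not reported here. Besides the 10 genes and the other core clock genes, the text names from each further list and comparison the 4 genes with the largest log2 change among those called, at 1 CPM or more in the higher group and not overlapping, and 5 genes each most like Arntl and Dbp (log2 CPM with a pseudocount of 0.5). Nr3c1, and Jun and Tsc22d3 in OA against control, were named in addition after their values were seen. Marker genes were chosen by cell type. Promoters came from RefSeq (GRCm38.p6) and gene positions from GENCODE. DESeq2 1.42.0, other scalings, no filter, a joint fit, a replicate block and leaving out each library were alternatives. Whether replicate numbers pair the libraries was checked by correlating deviations from group means.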

Additional observations from a re-analysis of the deposited data

Results flagged for a closer look

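The effect of BBR in OA-loaded cells minus its effect in cells without OA passed the interaction test (edgeR, adjusted over all 12742 genes) for 5 of the 10 other core clock genes tested, beside 12.2% of all genes. It was positive for Hlf (1.14, SE 0.32, adjusted p = 0.026), Nfil3 (0.30, SE 0.07, adjusted p = 0.012) and Rora (0.27, SE 0.09, adjusted p = 0.048), all on the log2 scale. For Ciart it was -0.84 (SE 0.25, adjusted p = 0.031) and for Bhlhe40 -0.20 (SE 0.06, adjusted p = 0.035). Leaving out 1 library left 0 to 6 calls among the 10 genes. The Rora adjusted p ranged from 0.0042 to 0.15 over the alternatives. None of the 10 was called without BBR+OA replicate 3, 1 without OA replicate 2 or BBR replicate 2, 2 without control replicate 1 or 2, and 3 without BBR replicate 3 or without BBR+OA replicate 1 or 2.

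Among the other genes named, the same test passed for Nr0b2 (1.48, SE 0.47, edgeR adjusted p = 0.047), Gys2 (1.04, SE 0.28, adjusted p = 0.020), Prkaa2 (0.43, SE 0.09, adjusted p = 0.0027), Nampt (-0.49, SE 0.08, adjusted p = 0.00029) and Lpin1 (-0.68, SE 0.13, adjusted p = 0.0020). Nr0b2 held only 5 to 12 counts in each BBR and BBR+OA library. These genes were named for large called changes in the same libraries, so the interaction calls are no independent result. Over the full lists, 1 was positive and 1 negative of 20 modifiers, and 2 and 3 of 17 output genes. Of 12 glucocorticoid and serum responsive genes, 0 were positive and 1 was negative, beside 12.2% of all genes called.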

How the results depend on the processing

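All 10 clock genes were called in OA against control and in BBR+OA against BBR, and 6 each of the other core clock genes, under every alternative run on counts: RLE and upper quartile scaling, no filter on low counts, DESeq2, the replicate block, all 12 libraries in 1 fit and each library left out in turn. For the 10 genes this follows from how they were selected. Over these alternatives 4270 to 6628 of all genes were called in OA against control and 3854 to 5281 in BBR+OA against BBR. The weak comparisons moved more. In BBR+OA against OA, leaving out a library gave 216 to 632 called genes (563 with all libraries) and 0 to 3 of the other core clock genes, and DESeq2 called 1 of these. For the interaction it gave 1027 to 1679 called genes (1551 with all), 0 to 6 of the other core clock genes, and 0 to 1 of the 10 clock genes. With all 12 libraries in 1 fit, 1 clock gene, Arntl, was called in BBR against control. The cause was not tested.

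Libraries with the same replicate number deviated from their group means together only weakly (r = 0.0556 to 0.205, not above 0.1 for every pair in any comparison). Every library nevertheless resembled its own number best. The main fits did not pair libraries by number, and what the numbers share is not stated, so a fit with a replicate block is given beside them. With the replicate block, 1333 genes were called in BBR+OA against OA, all 563 of the fit without it among them, with 5 of the other core clock genes and 1 of the 10 clock genes (Clock). The block also called 1 clock gene each in BBR against control (Per2) and for the interaction (Arntl).

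Among the log2 values of the 10 genes, 11 moved by more than the SD between replicates. On FPKM means these were Arntl, Npas2 and Cry1 in OA against control (0.72, 0.88 and 0.09), Npas2 and Cry1 in BBR against control (-0.22 and -0.28), and Npas2 and Tef in BBR+OA against OA (0.27 and 0). This alternative was chosen after seeing the data. The others involved leaving out 1 BBR+OA library, with Per3 at -2.26 in BBR+OA against BBR, -0.03 in BBR+OA against OA and -0.18 for the interaction, and Nr1d1 at -0.29 for the interaction. Among the other core clock genes 55 values lost and 12 gained a call. No value with a call changed sign, while some without one did when 1 library was left out, such as Arntl2 in BBR against control (-0.21 to 0.05). Depth limits Dbp most, with under 11 counts in each library with OA.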
